A study of Homo sapiens with 36 samples.

Results

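The MYC and MXD network was described here as 10 genes of 57820 in the count table, chosen by name: MYC, MYCN, MYCL, MAX, MXD1, MXD3, MXD4, MXI1, MNT and MGA. They were followed through 12 conditions of A2780 cells, an established ovarian carcinoma line, with 3 RNA-seq libraries for each condition and 36 in all. Cells labelled wt were the platinum-sensitive parental line, cells labelled cis were the derivative selected by long exposure to cisplatin, and cells labelled cis SSP had grown out of cis cells kept without serine and glycine. Each of these lines was grown in complete medium or in medium without serine and glycine (-SG), and in each medium either untreated or with carboplatin (carbo). The labels give the carboplatin dose as 6 M, where the study names 6 µM for its other assays. All conditions thus come from a single cell line and its descendants, and every cis and cis SSP library, the untreated ones included, carries the history of cisplatin selection. The figure legends of the study describe its RNA-seq replicates as technical, and the p-values given here therefore measure the spread between such libraries and not between independent cultures.

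MYC, MYCN and MYCL encode basic helix-loop-helix leucine zipper proteins that bind DNA only as dimers with MAX. The dimers bind E-boxes, of which CACGTG is the canonical form, and raise the transcription of genes for ribosome assembly, nucleotide synthesis, glycolysis and the cell cycle. The MXD proteins (MXD1, MXD3, MXD4 and MXI1) and MNT compete for the same MAX partner and recruit SIN3 corepressors with histone deacetylases to the same sites, and MGA is a large MAX partner found in a variant Polycomb complex. MXD1 is known as a gene that rises when cells leave the cycle and differentiate, while MXD3 is known for its expression in S phase.

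The E-box itself is printed here, since it is the sequence through which the network acts. Promoter sequences of RefSeq (build GRCh38.p14), reaching from 250 bases before to 50 bases after a transcription start, were searched for the palindrome CACGTG, which reads the same on both strands. Of the 10 genes, all but MYC had a sequence, so the MYC promoter was not searched, and 2 of their 14 promoters (14.3%) held the motif, those of MXD4 and MNT. A list of 40 genes known to be activated by MYC had it in 16 of 42 promoters (38.1%), with sequences for 32 of the genes, and all 35116 promoters had it in 2548 (7.26%). The list was picked as known MYC targets, so its share is a description and was not tested. HSPD1 and HSPE1, both on the list, share the same window on opposite strands, and it is counted for each. The motif in each window is in capitals, the windows of MXD4 and MNT are the motifs inside the network, and those of LDHA, HSPE1 and RRP9 belong to activated genes whose values are described further on. The windows are at chr4:2262330-2262359 (minus strand), chr17:2401236-2401265 (minus), chr11:18394366-18394395 and chr11:18394464-18394493 (both plus), chr2:197500345-197500374 (plus) and chr3:51941892-51941921 (minus), in this order.
MXD4: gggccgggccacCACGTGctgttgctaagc
MNT: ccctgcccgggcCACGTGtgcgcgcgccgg
LDHA, first: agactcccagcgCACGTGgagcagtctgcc
LDHA, second: cagcccgactcaCACGTGggttcccgcacg
HSPE1: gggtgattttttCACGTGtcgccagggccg
RRP9: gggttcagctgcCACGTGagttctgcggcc

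Libraries held 13074937 to 20441582 reads assigned to genes. Single libraries stood apart by 2 measures of quality. Reads outside any gene made up 17.9% and 14.9% in the second and the third cis -SG carbo libraries (libraries 23 and 24), against 4.21 to 9.31% in the others. A chi-square of the counts of 2 libraries of a condition, per degree of freedom, lay between 1.2 and 25.6 in the pairs without the first cis SSP library (library 25) or the second cis SSP -SG library (library 32), and at 103 or above in every pair with 1 of them. No pair agreed as closely as sampling noise alone would give, so all 36 libraries were counted separately. Library 11, the second of wt -SG carbo, was in the pairs at 24.6 and 25.6. Results that rest on libraries 25 and 32 are given with and without them. As for cell identity, VIM was at 1523.3 to 4746.7 CPM (reads of each library scaled to a common depth with TMM factors), while PAX8 did not pass 0.632 CPM, EPCAM did not pass 2.31 CPM and KRT8 did not pass 6.56 CPM, so these epithelial markers of the labelled tissue were low or nearly absent. KRT18, the remaining epithelial marker, moved with the lines and with treatment. It was at 0.496 to 0.733 CPM in wt and 15.7 to 18.5 CPM in cis (log2 4.76, adjusted p = 1.63e-29). In deprived medium it was at 0.345 to 0.515 CPM in wt -SG and 40.4 to 42.2 CPM in cis -SG. With carboplatin it was at 4.8 to 5.31 CPM in wt carbo and 6.62 to 7.71 CPM in wt -SG carbo. KRT8 likewise was at 0.222 to 0.551 CPM in wt and 5.19 to 6.05 CPM in wt carbo. Of 3 measured markers of other cell types, CD3E was at 0, PTPRC did not pass 0.0652 CPM, and COL1A1 was at 161 to 164 CPM in wt, 855 to 868 CPM in wt carbo, 3.28 to 4.6 CPM in cis and 14.7 to 19.7 CPM in cis SSP. The part of these differences in the results below was not tested, and in bulk RNA fewer cells of a type and less RNA per cell cannot be told apart.

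MYC was the most abundant transcript of the network for its length. Over the 12 condition means it spanned 30.1 to 77.5 RPKM (CPM per kilobase of merged exon), while the highest mean of any other member was 15 RPKM, for MAX. By the mean of all conditions the order per length was MYC (46 RPKM), MAX (11.7), MXD4 (9.06), MYCL (7.27), MXI1 (5.83), MGA (4.88), MXD1 (4.81), MNT (4.27) and MXD3 (1.47). MYCN was nearly silent, with 0 to 5 reads in a library, and it was left untested; the other 9 genes passed the filter on low counts in every comparison.

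**Figure D1:**
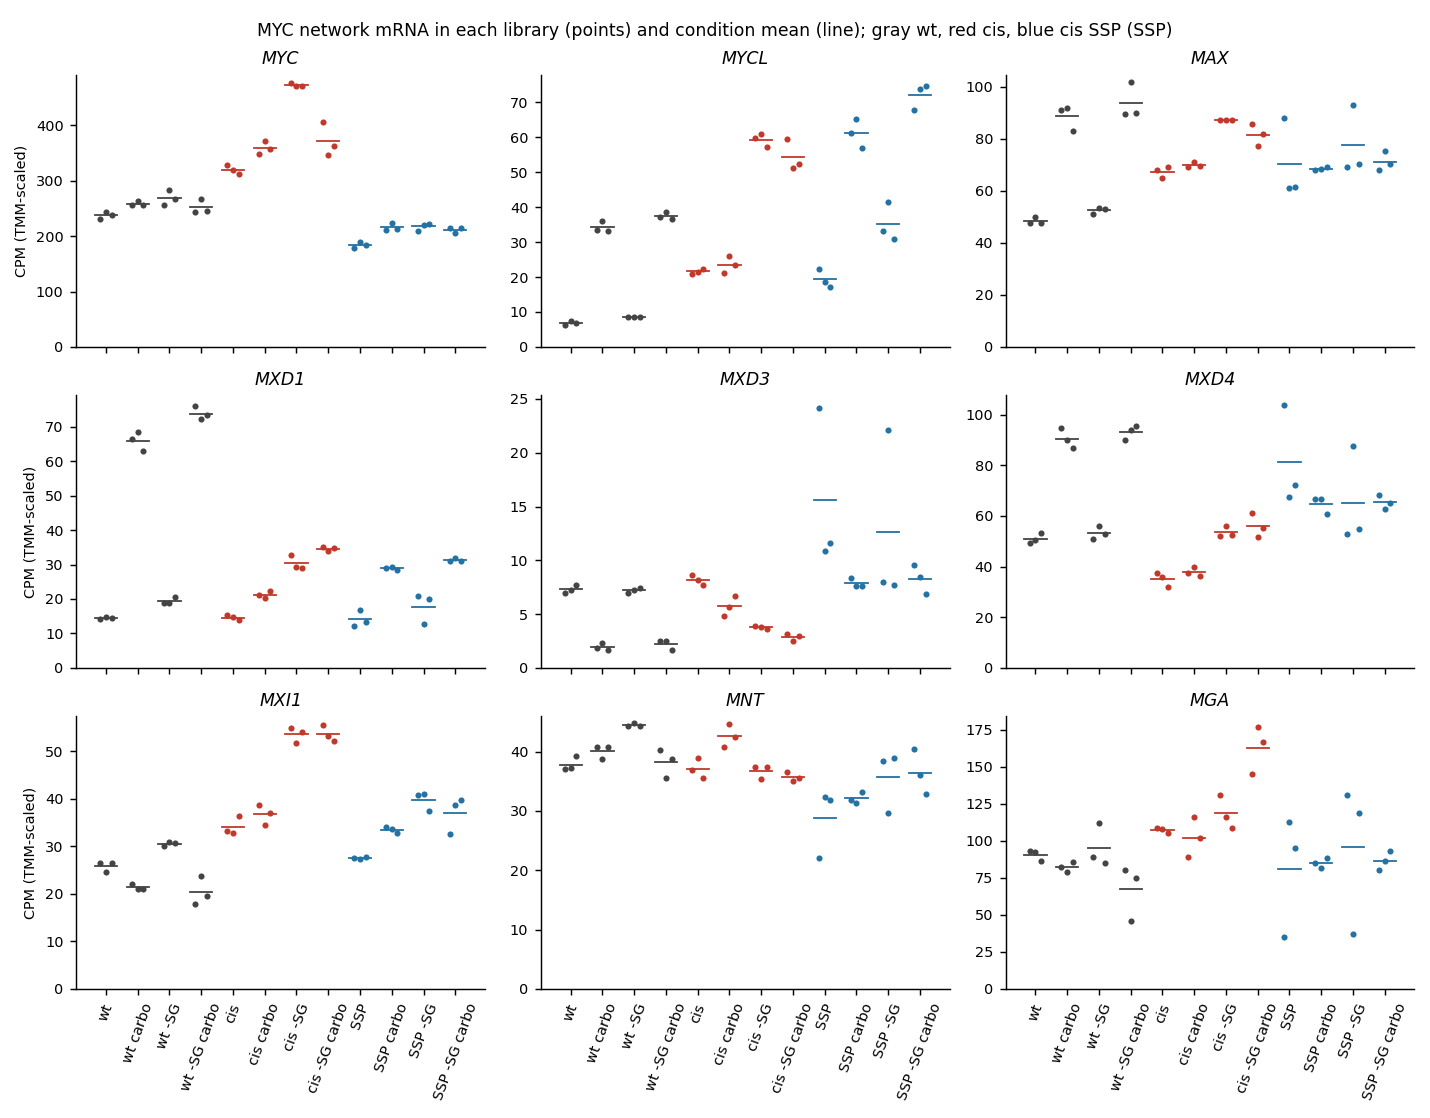
Expression of the 9 tested network genes in 36 libraries. The y axis of each panel is TMM-scaled CPM and starts at 0, the x axis gives the condition, points are libraries and short lines are means of 3. MYC in the 12 cis libraries (313 to 477 CPM) sits above that in the 12 wt libraries (231 to 283 CPM), which sits above cis SSP (179 to 223 CPM).

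The lines did not overlap in MYC. The 12 libraries of cis cells held 313 to 477 CPM, those of wt cells 231 to 283 CPM and those of cis SSP cells 179 to 223 CPM, whatever the medium and drug. From low to high, the condition means began with cis SSP at 184 CPM, followed by cis SSP -SG carbo (211), cis SSP carbo (216) and cis SSP -SG (218), which overlapped one another. Then came wt (238), wt -SG carbo (253), wt carbo (259) and wt -SG (269), of which neighbours in the last 3 overlapped. The order closed with cis (320), cis carbo (359), cis -SG carbo (372) and cis -SG (473), where the second and the third overlapped and cis -SG stood apart from all others.

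Resistant and sensitive cells were compared first, untreated and in complete medium. In cis cells MYC, MYCL and their partner MAX were higher, MYCL by the widest margin, and the MXD4 repressor was lower. In all, 5 of the 9 tested genes were higher and 1 was lower (edgeR quasi-likelihood test, Benjamini-Hochberg adjusted p under 0.05), beside 78.5% of all 14431 tested genes called (39.4% higher and 39.1% lower). A call on its own therefore sets no member apart in this comparison, and the sizes carry the description.

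MYC was at 231, 243 and 239 CPM in wt and at 328, 320 and 313 CPM in cis. Every cis library was above every wt library, and the difference was 1.33-fold (log2 0.41, SE 0.026, adjusted p = 9.10e-19). MYCL, a paralogue first found in lung cancer, was at 6.2, 7.49 and 6.86 CPM in wt against 20.9, 21.5 and 22.3 CPM in cis. The groups lay far apart for this gene, 3.11-fold higher in cis (log2 1.64, SE 0.0846, adjusted p = 5.71e-22). MAX was at 47.5, 49.9 and 47.6 CPM in wt and at 68.1, 64.9 and 69 CPM in cis, again without overlap and 1.37-fold higher (log2 0.46, SE 0.0422, adjusted p = 2.35e-13).

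Among the repressors the direction was mixed. MXD4 was at 49.4, 50.7 and 53.1 CPM in wt but only 37.6, 35.7 and 31.9 CPM in cis, so all cis libraries were below wt (fold 0.676, log2 -0.57, SE 0.0523, adjusted p = 6.43e-13). MXI1 was 1.3-fold higher in cis (34 against 25.8 CPM, adjusted p = 9.64e-08). MGA was 1.17-fold higher in cis (107 against 90.7 CPM, adjusted p = 1.67e-07), but did not pass in a fit of all 36 libraries (adjusted p = 0.511). For MXD1, MXD3 and MNT the libraries of the lines overlapped and no difference passed the test (log2 -0.01, 0.13 and -0.05).

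Without serine and glycine the gap between the lines was wider for MYC, MYCL and MAX, and also for the repressors MXD1 and MXI1. Here 5 genes were higher in cis -SG than in wt -SG and 2 were lower, against 81.1% of all tested genes called (40.8% higher and 40.3% lower). MYCL stood at 8.43, 8.65 and 8.63 CPM in wt -SG and at 59.7, 60.8 and 57.1 CPM in cis -SG. That is a 7.13-fold difference with no overlap (log2 2.83, SE 0.0592, adjusted p = 5.55e-20). MYC was 1.82-fold higher (473 against 269 CPM, adjusted p = 8.65e-16) and MAX was 1.72-fold higher (87.2 against 52.5 CPM, adjusted p = 1.03e-13). MXI1 and MXD1, both competitors of MYC for MAX, were also higher, 1.81-fold (adjusted p = 5.11e-13) and 1.63-fold (adjusted p = 2.97e-09). MXD3 and MNT were lower (log2 -0.89 and -0.23), and MXD4, lower in cis in complete medium, was at 53.6 CPM in cis -SG and 53.3 CPM in wt -SG. MGA did not pass the test with all libraries (adjusted p = 0.0715), but it passed with DESeq2 (0.0324) and without the second wt -SG library (0.00144).

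**Figure D2:**
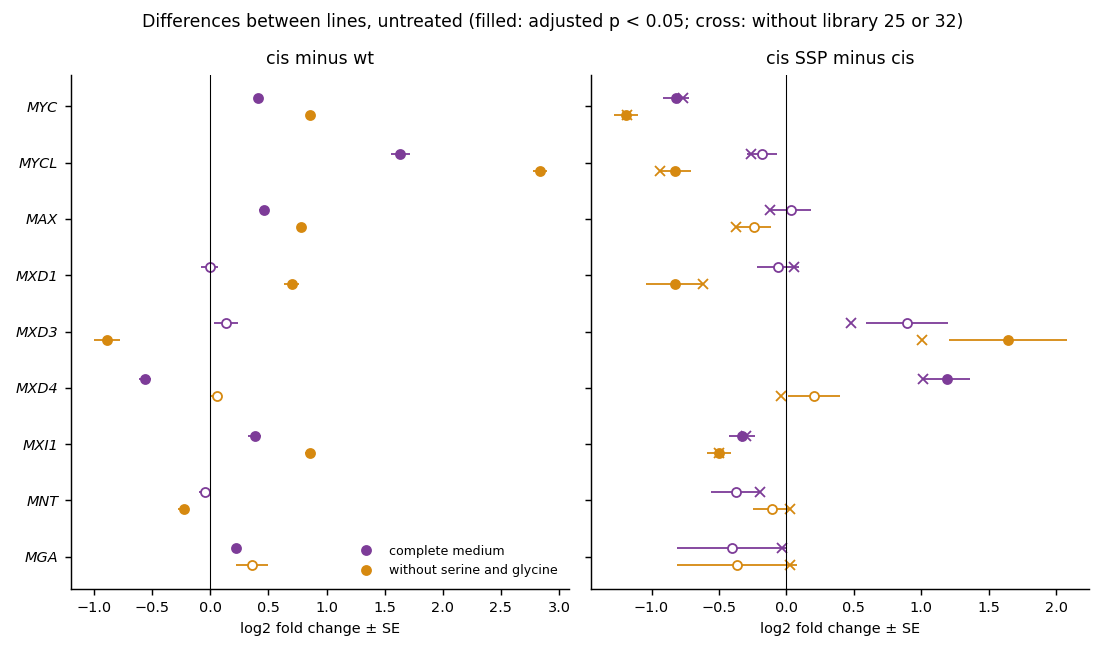
Differences between untreated lines in the 9 tested genes. The x axis is the log2 fold change with its standard error, colors mark the medium, filled points passed the test, and crosses leave out library 25 or 32. MYCL shows the widest difference between cis and wt, and MYC is lower in cis SSP than in cis in both media.

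The second question was how carboplatin acted on the network in sensitive and resistant cells. In wt cells MYCL and MXD1 rose the most, MAX and MXD4 also rose, and MXD3 fell, whereas MYC itself moved little. In cis cells MYCL, MAX and MXD4 did not pass the test. The count was 5 higher and 3 lower of 9 in wt cells, where 77.8% of all tested genes were called (38.9% higher and 39.0% lower). It was 3 higher and 1 lower in cis cells, where 20.1% were called (9.27% higher and 10.8% lower). These comparisons share their untreated libraries with the comparison of lines above and with those of deprivation below.

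MYCL rose from 6.2, 7.49 and 6.86 CPM in wt to 33.4, 36 and 33.3 CPM in wt carbo. No untreated library came near a treated one, and the fold was 5.01 (log2 2.32, SE 0.0748, adjusted p = 4.42e-139). In cis cells MYCL was at 20.9, 21.5 and 22.3 CPM untreated and at 21.1, 26.1 and 23.3 CPM with the drug. These groups overlapped (log2 0.12, SE 0.0722, adjusted p = 0.247), and the responses of the lines differed by log2 -2.20 (SE 0.107, adjusted p = 4.00e-26) in a fit of the 4 conditions that tested the difference itself. In that fit 2 members had a more positive and 4 a more negative response in cis than in wt, against 57.6% of all tested genes called (30.3% more positive and 27.2% more negative).

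MXD1 behaved in a like manner in wt cells, from 14.3, 14.8 and 14.4 CPM to 66.5, 68.4 and 63.1 CPM. This 4.58-fold rise (log2 2.19, SE 0.0535, adjusted p = 1.13e-198) left no overlap. In cis cells MXD1 went from 15.3, 14.8 and 13.8 CPM to 21.3, 20.4 and 22.2 CPM, a smaller but separate rise of 1.47-fold (adjusted p = 1.41e-06). The lines had started from the same level, 14.5 CPM in wt and 14.6 CPM in cis, and their responses differed by log2 -1.63 (SE 0.0922, adjusted p = 3.86e-23).

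MXD3 moved the other way. It fell from 6.98, 7.22 and 7.75 CPM in wt to 1.89, 2.32 and 1.64 CPM in wt carbo, with no overlap (log2 -1.90, SE 0.15, adjusted p = 2.73e-33), and in cis from 8.67, 8.13 and 7.68 CPM to 4.82, 5.68 and 6.64 CPM (log2 -0.50, SE 0.121, adjusted p = 0.00323), a call that was lost in a fit of all 36 libraries (adjusted p = 0.586). The fall was larger in wt, by log2 1.40 (SE 0.198, adjusted p = 1.17e-08). MXD3 is the least certain member, since it had 25 to 330 reads a library and shares 926 exon bases with RAB24 on its own strand and 1148 with PRELID1 on the opposite strand, and the strand setting of the counting is not stated. MXD1 shares 237 exon bases with SNRNP27 on the same strand, and MAX shares 822 with FNTB on the opposite strand, where FNTB had 86 to 240 reads against a median of 1226 for MAX.

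MAX and MXD4 rose in wt and passed no test in cis. MAX was at 47.5, 49.9 and 47.6 CPM in wt and at 90.9, 92 and 83.2 CPM in wt carbo, a 1.84-fold rise (adjusted p = 1.39e-90), against log2 0.07 (adjusted p = 0.274) in cis. MXD4 rose 1.78-fold in wt (51.1 to 90.6 CPM, adjusted p = 1.51e-85), against log2 0.12 (adjusted p = 0.171) in cis. The responses of both genes differed between the lines, by log2 -0.81 and -0.71 (adjusted p = 7.99e-19 and 1.43e-12). MXI1 fell by 0.26 on the log2 scale in wt (adjusted p = 3.44e-05) and had log2 0.12 (adjusted p = 0.135) in cis.

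MYC had small changes in both lines, log2 0.13 in wt (238 to 259 CPM, adjusted p = 2.76e-08) and log2 0.17 in cis (320 to 359 CPM, adjusted p = 4.78e-05). Neither passed in a fit of all 36 libraries (adjusted p = 0.0623 in wt and 0.136 in cis). The difference of 0.05 between these responses did not pass the test (adjusted p = 0.237), but with total counts it was log2 0.10 and passed (adjusted p = 0.0277). MNT rose in cis (log2 0.21, adjusted p = 0.00637) but not past the threshold with DESeq2 (adjusted p = 0.0667), and its log2 of 0.09 in wt did not pass (adjusted p = 0.0736). MGA fell slightly in wt (log2 -0.13, adjusted p = 0.000143), a call that was lost in the fit of all 36 libraries (adjusted p = 0.727).

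**Figure D3:**
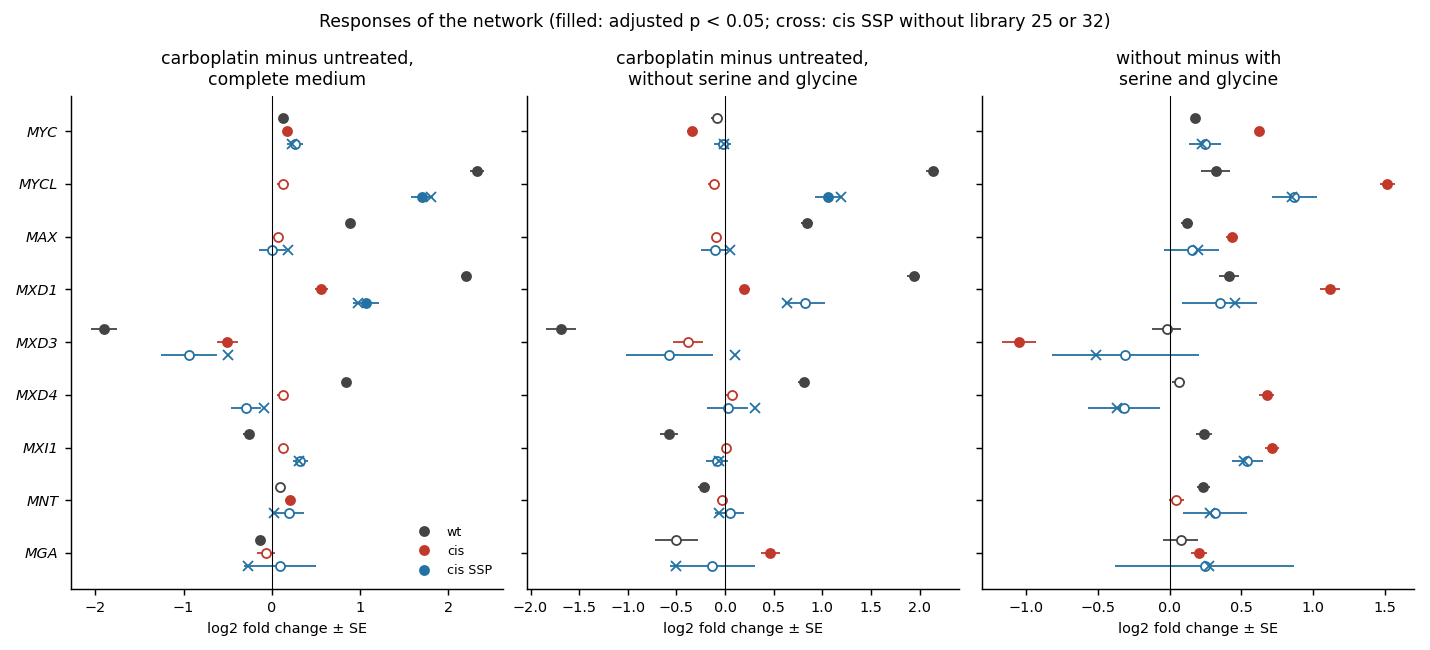
Responses of the 9 tested genes to carboplatin in complete medium, to carboplatin without serine and glycine, and to the loss of serine and glycine in untreated cells. The x axes are log2 fold changes with standard errors, colors mark the line, filled points passed the test and crosses leave out libraries 25, 32 or both. Carboplatin raised MYCL by log2 2.32 in wt and had log2 0.12 in cis, while deprivation raised it by log2 1.52 in cis and by 0.32 in wt.

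In medium without serine and glycine, carboplatin gave wt cells a pattern of the same order for the large responders. Of 9 genes, 4 rose and 3 fell, with 68.9% of all tested genes called (34.3% higher and 34.6% lower). MYCL rose from 8.43, 8.65 and 8.63 CPM to 37.3, 38.5 and 36.7 CPM (4.39-fold, adjusted p = 9.93e-09), and MXD1 from 18.7, 18.7 and 20.5 CPM to 75.9, 72.3 and 73.3 CPM (3.83-fold, adjusted p = 1.17e-08). Neither gene had overlapping groups, and MXD3 again fell without overlap (log2 -1.68, adjusted p = 8.48e-06). Fitted against complete medium, the carboplatin responses of 4 members were more negative without serine and glycine and none was more positive, against 27.7% of all tested genes called (14.6% more positive and 13.1% more negative). They were MYC (log2 -0.22, adjusted p = 0.0142), MXD1 (-0.26, adjusted p = 0.0222), MXI1 (-0.32, adjusted p = 0.0397) and MNT (-0.32, adjusted p = 0.00626). DESeq2 called 2 of the 4, the fit on all 36 libraries called 0, and leaving out a single library left 2 to 4. The lowest count, 2, came without wt -SG replicate 3, wt carbo replicate 2, wt replicate 1 or wt replicate 3.

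In cis cells without serine and glycine, MYC fell under carboplatin. It was at 477, 471 and 472 CPM in cis -SG and at 407, 347 and 363 CPM in cis -SG carbo. All treated libraries were below all untreated ones (log2 -0.34, SE 0.0491, adjusted p = 0.00122), and with only the first treated library, that is without libraries 23 and 24, the change was -0.21 (adjusted p = 2.10e-06). The lone treated library is there assumed to vary like the untreated ones. MXD1 and MGA were the members that rose (log2 0.20 and 0.47, adjusted p = 0.0248 and 0.0245), which makes 3 calls of 9 beside 22.5% of all tested genes (10.9% higher and 11.6% lower). MXD1 did not pass with DESeq2 (adjusted p = 0.189). Neither gene passed in a fit of all 36 libraries (adjusted p = 0.371 for MXD1 and 0.46 for MGA). Without libraries 23 and 24, MGA had an adjusted p of 0.243, MXD4 passed (0.0163) and 14.5% of all genes were called. The count was 6 without the first treated library, and 1 without the third treated library or without the second cis -SG library.

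Deprivation of serine and glycine alone was the third comparison, and here it was the resistant cells that moved further. In cis cells 7 members rose and 1 fell, with 75.0% of all tested genes called (37.6% higher and 37.4% lower). In wt cells 6 rose and 0 fell, with 49.2% called (24.1% higher and 25.1% lower). The test of the difference called 6 members as responding more positively in cis and 2 more negatively, against 54.0% of all tested genes (27.1% and 26.9%).

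MYC rose from 328, 320 and 313 CPM in cis to 477, 471 and 472 CPM in cis -SG, and from 231, 243 and 239 CPM in wt to 256, 283 and 268 CPM in wt -SG. Both sets were separate, with 1.54-fold (log2 0.62, SE 0.0276, adjusted p = 9.76e-25) and 1.13-fold (log2 0.18, SE 0.0325, adjusted p = 0.000145). The responses differed by log2 0.46 (SE 0.0409, adjusted p = 3.75e-12).

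MYCL rose from 20.9, 21.5 and 22.3 CPM to 59.7, 60.8 and 57.1 CPM in cis. That is 2.86-fold with no overlap (log2 1.52, SE 0.0528, adjusted p = 8.74e-29), against 1.25-fold in wt (6.85 to 8.57 CPM, adjusted p = 0.0114). The rise in wt did not pass without the first wt library (adjusted p = 0.0675) or with DESeq2 (0.0958). The difference between the lines was log2 1.21 (SE 0.11, adjusted p = 6.43e-12). Under carboplatin in cis cells without serine and glycine MYCL had log2 -0.12 (adjusted p = 0.156), and it was lower without the first treated library (log2 -0.19, adjusted p = 0.00275).

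MXD1 rose in cis from 15.3, 14.8 and 13.8 CPM to 32.7, 29.4 and 29 CPM (2.17-fold, adjusted p = 1.89e-19), and in wt from 14.5 to 19.3 CPM (1.33-fold, adjusted p = 5.56e-05). MXD3 fell in cis from 8.67, 8.13 and 7.68 CPM to 3.93, 3.76 and 3.61 CPM (log2 -1.05, adjusted p = 1.22e-10), and was at 7.32 and 7.22 CPM in wt. Both genes were separate between the cis groups, and in each comparison above where MXD1 and MXD3 were both called against an untreated or undeprived group of the same line, they moved in opposite directions.

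MXI1 and MXD4, the remaining MXD genes, also rose in cis. MXI1 went from 33.1, 32.7 and 36.3 CPM to 54.8, 51.7 and 53.9 CPM (1.64-fold, adjusted p = 3.06e-17) and in wt from 25.8 to 30.5 CPM (1.18-fold, adjusted p = 0.00108). MXD4 went from 37.6, 35.7 and 31.9 CPM to 52.1, 56.1 and 52.6 CPM (1.6-fold, adjusted p = 1.94e-15), with log2 0.06 (adjusted p = 0.27) in wt. The groups were apart for both genes in cis. MAX rose 1.35-fold in cis (67.3 to 87.2 CPM, adjusted p = 9.91e-14) and 1.09-fold in wt, where the call (adjusted p = 0.0248) was lost without wt -SG replicate 2 or 3 or wt replicate 1 or 3 (adjusted p 0.063 to 0.0926). MNT rose in wt only by the test (log2 0.23, adjusted p = 0.000246, and 0.11 in a fit of all 36 libraries), with log2 0.05 (adjusted p = 0.425) in cis. Its difference between lines (log2 -0.17, adjusted p = 0.0335) did not pass without cis replicate 2 (0.115) or cis -SG replicate 2 (0.0598). Nor did it pass with DESeq2 (0.0839), total counts (0.0858) or all 36 libraries in 1 fit (0.203). MGA rose in cis (log2 0.21, adjusted p = 0.00592) with overlapping groups, and not without the third cis library (0.105).

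Cells of the cis SSP line carried lower MYC than the cis cells from which they came. MYC was at 179, 189 and 184 CPM in cis SSP against 328, 320 and 313 CPM in cis, below in every library (fold 0.567, log2 -0.82, SE 0.0976, adjusted p = 0.00179), and at 210, 220 and 222 CPM in cis SSP -SG against 477, 471 and 472 CPM in cis -SG (fold 0.438, log2 -1.19, SE 0.0904, adjusted p = 0.000235). Without library 25 the first difference was -0.77 and without library 32 the second was -1.18, so MYC depended little on the libraries that stood apart. In complete medium 1 member was higher and 2 were lower (29.1% of all tested genes called, 15.8% higher and 13.3% lower), and without library 25 the count was 2 higher and 5 lower (65.4%). Without serine and glycine 1 was higher and 4 were lower (44.8% called, 21.6% higher and 23.2% lower), and without library 32 1 was higher and 5 were lower (75.5%); leaving out any single cis -SG library gave 3.

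The other members of these lists follow. MXD4 was at 104, 67.5 and 72.2 CPM in cis SSP, the first value from library 25, and at 37.6, 35.7 and 31.9 CPM in cis. All were above cis, 2.28-fold higher (log2 1.19, adjusted p = 0.00408) and 2.02-fold without library 25. MXI1 was lower in both media (log2 -0.33 and -0.50, adjusted p = 0.0428 and 0.00536; log2 -0.30 without library 25 and -0.50 without library 32), and in complete medium this call was lost when any single library other than library 25 was left out (adjusted p 0.0961 to 0.191). MYCL did not differ past the threshold in complete medium (19.3 against 21.6 CPM, adjusted p = 0.263; 0.00338 without library 25) and was lower without serine and glycine (35.1 against 59.2 CPM, fold 0.564, adjusted p = 0.00275; fold 0.523 without library 32). MXD1 was lower without serine and glycine (17.8 against 30.4 CPM, fold 0.564, adjusted p = 0.0216; fold 0.651 without library 32). MXD3 was higher there (12.6 against 3.77 CPM, log2 1.64, adjusted p = 0.0238, and log2 1.01 without library 32). The calls of MXD1 and MXD3 were both lost when any single cis -SG library was left out (adjusted p 0.0632 to 0.0758 and 0.0786 to 0.0831).

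Libraries 25 and 32 departed from their neighbours in several members and in the same sense. MGA, with 20074 exon bases the longest member, was at 35.2 CPM in library 25 beside 113 and 95.1 CPM, and at 37.3 CPM in library 32 beside 131 and 119 CPM. MXD3 was at 24.2 CPM in library 25 beside 10.9 and 11.6 CPM, and at 22.1 CPM in library 32 beside 7.95 and 7.71 CPM. MAX was at 88.2 CPM beside 61 and 61.5 CPM, and at 93.1 CPM beside 69.2 and 70.4 CPM. MNT was at 22.1 CPM in library 25 beside 32.4 and 31.8 CPM, and at 29.6 CPM in library 32 beside 38.4 and 39 CPM. In short, both libraries were low in MGA and MNT and high in MXD3, MXD4 and MAX. They were also the lowest of their condition in MXD1 and the highest in MYCL, while MYC and MXI1 stayed close to the other libraries.

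Carboplatin raised MYCL and MXD1 in cis SSP cells. MYCL went from 22.2, 18.5 and 17.2 CPM to 61.3, 65.1 and 57 CPM, a 3.25-fold rise with no overlap (log2 1.70, SE 0.124, adjusted p = 0.00397; log2 1.80 without library 25). MXD1 went from 12.2, 16.8 and 13.4 CPM to 29.1, 29.3 and 28.5 CPM, also apart (2.1-fold, adjusted p = 0.0218; 1.96-fold without library 25). These were the 2 calls of 9, where 2.72% of all tested genes were called (1.97% higher and 0.749% lower). Without library 25 the count was 7 (5 higher and 2 lower, 41.2% of all genes), with MYC (log2 0.23, adjusted p = 5.40e-07) and MXI1 (log2 0.31, adjusted p = 0.000136) among the genes that rose; without the first cis SSP carbo library it was 0, and without the second or the third cis SSP carbo library or the third cis SSP library it was 1. Without serine and glycine MYCL alone was called (33.1, 41.4 and 30.9 CPM to 67.9, 73.8 and 74.5 CPM, 2.08-fold, adjusted p = 0.024; 2.29-fold without library 32), with 1.47% of all genes called (1.17% higher and 0.295% lower). There the count was 4 without library 32 (41.1% of all genes) and 0 when any other single library of the comparison was left out. Whether the MYCL response of cis SSP differs from that of cis was not tested.

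Deprivation called 0 members in cis SSP cells with edgeR, beside 0.0218% of all 13736 tested genes, where 0.0218% were higher and 0.00% lower. At an unadjusted p under 0.05 there were 2, MYCL and MXI1, and DESeq2 called the same number. Without libraries 25 and 32 the count was 8 (6 higher and 2 lower), with 35.9% of all genes called. MYCL was at 22.2, 18.5 and 17.2 CPM in cis SSP and at 33.1, 41.4 and 30.9 CPM in cis SSP -SG, the middle value from library 32. The groups were apart, with log2 0.87 (adjusted p = 0.282) in all libraries and log2 0.86 (adjusted p = 4.27e-10) without those 2. MYC had log2 0.25 (adjusted p = 0.833), or 0.22 (adjusted p = 1.00e-05) without them. Tested against the response of cis cells, 0 members were more positive and 3 more negative in cis SSP, with 17.1% of all tested genes called (6.86% more positive and 10.3% more negative). The 3 were MYC (log2 -0.36, adjusted p = 0.0319), MYCL (-0.64, adjusted p = 0.0304) and MXD4 (-0.98, adjusted p = 0.0448). Without libraries 25 and 32, 2 were more positive and 6 more negative (55.4%), with MYC at -0.40, MYCL at -0.66 and MXD4 at -1.04. With single libraries left out the count lay between 0 and 4, and it was 0 when any single cis or cis -SG library was left out and when the first or the third cis SSP -SG library was left out, and 1 when the second or the third cis SSP library was left out.

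Genes that work with MYC were described by lists named from general knowledge. The MYC-activated growth genes were 40 genes, among them genes of ribosome assembly, translation, polyamine and nucleotide synthesis and glycolysis. The list also held genes of other functions, such as TERT, CDK4, TFRC, MIR17HG, SLC19A1, HSPD1 and HSPE1. In complete medium 29 list genes were higher in cis than in wt, 5 were lower and the list median was log2 0.34. Of all tested genes 39.4% were higher, 39.1% were lower and their median was -0.0041. NOP56, a box C/D snoRNP protein, was at 535 CPM ± 8.65 (SD, n = 3) in cis and 237 ± 10.2 CPM in wt (log2 1.15). RRP12, a factor of ribosome maturation, was at 131 ± 1.76 and 63.9 ± 1.26 CPM (log2 1.01), and PRPS2, which makes the ribose donor of nucleotides, had log2 1.94. MIR17HG, the host of a microRNA cluster that MYC activates, went the other way with log2 -3.57. Without serine and glycine 28 were higher and 9 lower in cis (median 0.42), against 40.8% and 40.3% of all tested genes (median 0.0037).

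Under deprivation MYC and this list moved in different directions. In wt cells 1 list gene rose and 29 fell (median -0.20), against 24.1% and 25.1% of all tested genes (median 0.0085). In cis cells 6 rose and 24 fell (median -0.13), against 37.6% and 37.4% (median 0.012), so the total called was at the share of all genes there. MYC rose in both lines. LDHA, the lactate dehydrogenase subunit whose 2 E-boxes are printed above, fell from 1374 ± 35.5 CPM to 594 ± 10.8 CPM in cis (log2 -1.15, SE 0.0279, adjusted p = 5.08e-35) and from 1311 to 760 CPM in wt (log2 -0.78). HSPE1, the mitochondrial cochaperonin, fell by 0.84 on the log2 scale in cis and by 0.60 in wt, and TFRC, the transferrin receptor, by 1.06 and 0.85. RRP12 rose in both lines (log2 0.94 and 0.47), and RRP9, whose E-box lies at its start site, rose in cis (0.31) and fell in wt (-0.24).

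**Figure D4:**
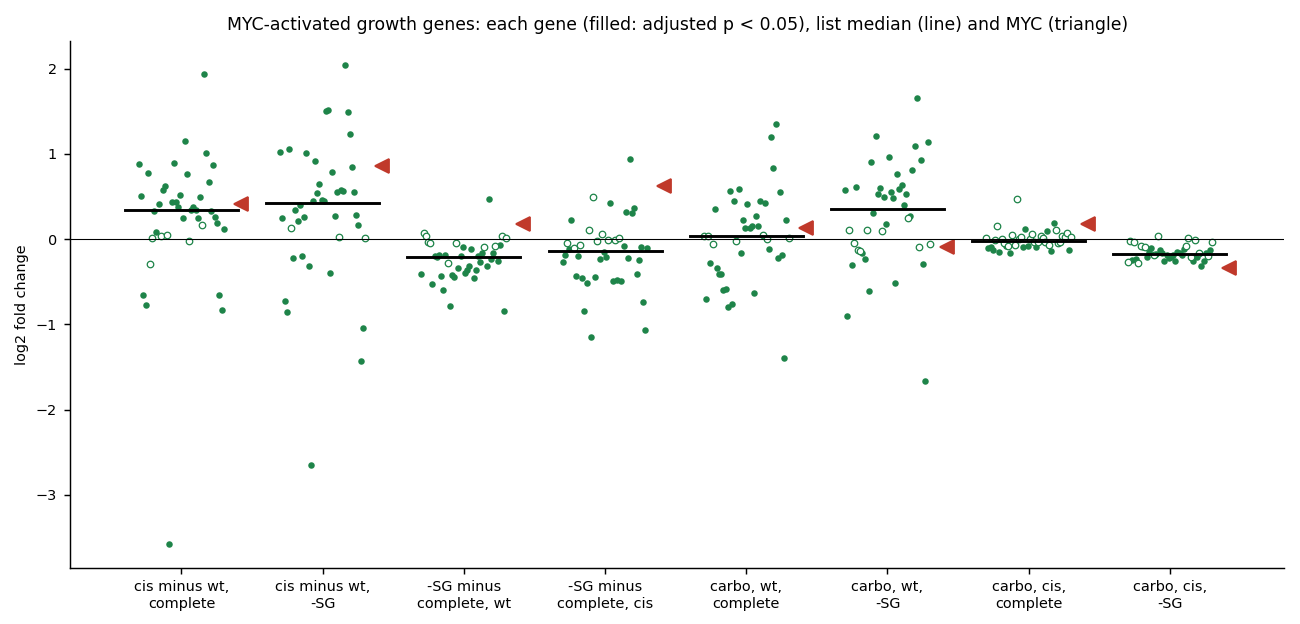
The 40 MYC-activated growth genes in 8 comparisons of wt and cis cells. The y axis is the log2 fold change, each point is a gene (filled where it passed the test), black lines are list medians and red triangles give MYC. Deprivation lies with its list medians below 0 (-0.20 and -0.13) and its triangles above 0 (0.18 and 0.62).

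Carboplatin split the list in wt cells, with 18 genes higher and 15 lower in complete medium (median 0.04; all tested genes 38.9% and 39.0%, median -0.0007) and 23 higher and 8 lower without serine and glycine (median 0.35; all tested genes 34.3% and 34.6%, median -0.0070). Tested as a difference between media, the response was more positive without serine and glycine for 23 list genes and more negative for 1 (median 0.25), against 14.6% and 13.1% of all tested genes (median -0.0077). RRS1, RRP12 and RRP9, all of ribosome assembly, rose by log2 1.35, 1.20 and 0.83 in complete medium, and TERT, the catalytic subunit of telomerase, fell from 20 to 7.63 CPM (log2 -1.39). In cis cells 3 rose and 11 fell in complete medium (median -0.02), against 9.27% and 10.8% of all tested genes (median 0.0028). Without serine and glycine 0 rose and 25 fell (median -0.17), against 10.9% and 11.6% (median 0.0034), and MYC also fell there; without libraries 23 and 24 it was 0 and 17, with 14.5% of all genes called. In cis SSP cells edgeR called 0 list genes under carboplatin in complete medium (4 at an unadjusted p under 0.05, 1 by DESeq2), under carboplatin without serine and glycine (4 and 0) and under deprivation (1 and 0), beside 2.72%, 1.47% and 0.0218% of all tested genes. Without the libraries that stood apart, carboplatin in complete medium gave 21 higher and 4 lower without library 25 (41.2% of all genes called), carboplatin without serine and glycine gave 17 higher and 7 lower without library 32 (41.1%), and deprivation gave 7 higher and 7 lower without libraries 25 and 32 (35.9%). Against cis cells, cis SSP cells had 2 list genes higher and 11 lower in complete medium (15.8% and 13.3% of all tested genes), and 5 and 30 without library 25 (65.4% called). Without serine and glycine the counts were 6 and 10 (21.6% and 23.2%), and 10 and 21 without library 32 (75.5% called).

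Of 8 genes that MYC is known to repress, all 8 tested, 6 rose and 1 fell in wt under carboplatin (median 1.79), against 38.9% and 39.0% of all tested genes (median -0.0007). CDKN1A, the p21 inhibitor and also a p53 target, went from 140 ± 2.77 CPM in wt to 1778.6 ± 18.7 CPM in wt carbo (log2 3.67), and GADD45A, a p53 target as well, had log2 1.88. In cis cells under deprivation 5 of 7 tested rose and 1 fell (median 0.77; 37.6% and 37.4% of all tested genes, median 0.0120), among the former NDRG1 (log2 2.22), GADD45A (1.81) and DDIT3 (1.38), an ATF4 target of the stress response. In wt under deprivation 5 of 6 tested rose and 1 fell (median 0.48; 24.1% and 25.1% of all tested genes). In cis against wt 2 of 7 were higher and 4 lower (median -0.29, against 39.4% and 39.1% of all tested genes). In cis under carboplatin 3 of 6 rose and 1 fell (median 0.29, against 9.27% and 10.8%). In cis SSP against cis 3 of 8 were higher and 3 lower in complete medium (median -0.0068, against 15.8% and 13.3%). Without serine and glycine 2 of 8 were higher and 5 lower (median -1.54, against 21.6% and 23.2%). Without library 32 these were again 2 and 5 (median -1.52, 75.5% of all genes called).

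Genes that set the stability of MYC protein numbered 9, and they, the coactivators and the corepressors are read against the shares of all tested genes called: 78.5% in cis against wt, 77.8% in wt under carboplatin, 75.0% in cis under deprivation and 49.2% in wt under deprivation. In wt under carboplatin 3 rose and 5 fell (median -0.48), where AURKA, a kinase that stabilizes MYC proteins and peaks in mitosis, fell by 2.00 on the log2 scale, and SKP2, the F-box subunit of a ubiquitin ligase, by 1.41. In cis under deprivation 1 rose and 6 fell (median -0.65), SKP2 by 1.46, AURKA by 1.43 and CIP2A by 1.07, while USP36, a nucleolar deubiquitinase, rose by log2 0.75. In wt under deprivation 2 rose and 4 fell (median 0.04). Of 10 coactivators and partners, 4 were higher and 4 lower in cis against wt, 3 rose and 5 fell in wt under carboplatin, and 1 rose and 6 fell in cis under deprivation, RUVBL2, a helicase of several chromatin complexes, by 0.63. These totals are near the shares of all genes. The corepressors SIN3A, SIN3B, HDAC1 and HDAC2 had small changes, the largest in these 3 comparisons being HDAC1 in cis against wt (log2 -0.60). MLX, the partner of a parallel branch of the network, was higher in cis than in wt (log2 0.35), fell under carboplatin in wt (-0.50) and fell under deprivation in cis (-0.83). PVT1, a long noncoding RNA next to MYC, had 8.28 ± 1.28 CPM in wt cells against 18.9 ± 0.707 CPM in cis cells (log2 1.17, adjusted p = 5.27e-16). It rose with carboplatin in wt (log2 1.43) and less in cis (0.34), and with deprivation in both (0.51 and 0.59). MYCNOS, the antisense RNA at MYCN, had 0 reads in every library.

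The genes whose condition means followed MYC most closely were found over 7238 genes with a log2 range of at least 1. They were TAF4B (Pearson r = 0.969 across 12 condition means), DDIT3 (0.962), SLC9B2 (0.96), PABPC1 (0.959) and RAB6A (0.958). All 5 were lowest in cis SSP, and all but DDIT3, which peaked in cis -SG carbo, were highest in cis -SG like MYC. DDIT3 is also on the list above of genes that MYC is known to repress. Within the network MGA had r = 0.701 with MYC, MXI1 0.575, MNT 0.437, MAX 0.263, MYCL 0.164, MXD1 0.138, MXD3 -0.512 and MXD4 -0.54. The points share libraries and lines, so these values are a description.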

How the data were processed

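RNA-seq of 36 libraries was analysed from the raw counts per gene that the authors deposited. By the study's methods, alignment used STAR and the GRCh37.p13 build, and HTSeq counted reads over exons; the strand setting is not given in the sources used here. Symbols, exon lengths and overlaps came from GENCODE lifted to GRCh37, which named 55538 of 57820 genes. This was a later GENCODE release than the study used for counting, so RPKM and shared exon bases need not match the exons counted. The 3 rows that name no gene were left out (reads without a feature were 4.21 to 17.9% of a library). Each comparison was fitted on its own conditions with edgeR 4.0.16 (filterByExpr, TMM, robust quasi-likelihood F test, Benjamini-Hochberg, adjusted p under 0.05) in R 4.3.3, and differences between responses as interaction terms in 4 conditions. The standard error is the log2 change over the root of F. Levels are CPM after TMM over all libraries, and RPKM was used between genes. The members and lists were chosen with earlier results of these data known. All 10 members are named; of a list, examples are among the 4 largest called changes at a mean of 50 counts or more, besides E-box genes, genes followed across comparisons and the small lists, which were picked with their values seen. Alternatives were DESeq2 1.42.0, its size factors, total counts, no filter, all libraries in 1 fit and libraries left out.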

Additional observations from a re-analysis of the deposited data

Results flagged for a closer look

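Some responses differed between lines or media by the test of the difference itself (edgeR interaction terms). For carboplatin in cis minus wt these were MYCL (log2 -2.20), MXD1 (-1.63), MAX (-0.81), MXD4 (-0.71), MXI1 (0.39) and MXD3 (1.40). For deprivation in cis minus wt they were MYCL (1.21), MXD1 (0.72), MXD4 (0.63), MXI1 (0.49), MYC (0.46), MAX (0.33), MNT (-0.17) and MXD3 (-1.01). Of these, MAX, MNT and MXD3 did not pass in a fit of all 36 libraries (adjusted p = 0.194, 0.203 and 0.0501). Between cis SSP and cis, deprivation differed in MYC (-0.36), MYCL (-0.64) and MXD4 (-0.98). In wt cells, carboplatin without minus with serine and glycine differed in MYC (-0.22), MXD1 (-0.26), MXI1 (-0.32) and MNT (-0.32). Groups of 3 libraries are too small for a test of single outlying libraries.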

How the results depend on the processing

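No member change that passed with all its libraries turned direction under another setting. Without library 25, MAX in cis SSP against cis, complete medium, went from log2 0.04 (not called) to -0.12 (adjusted p = 0.0235). Likewise MGA under carboplatin in cis SSP, complete medium, went from log2 0.09 (not called) to -0.27 (adjusted p = 0.0297). Of the counts of called members in the 17 comparisons, 74 of 88 under settings other than single libraries left out stayed within 1.5 times. In a fit of all 36 libraries, the calls became 5 for cis SSP against cis in complete medium, 5 and 2 for carboplatin in cis SSP in complete and deprived medium, 1 for carboplatin in cis in each medium, 3 for deprivation in cis SSP, 5 for the deprivation response of cis against wt and 0 for the carboplatin response of wt between media. DESeq2 gave 2 for deprivation in cis SSP, 2 for carboplatin in cis SSP -SG and 2 for the carboplatin response of wt between media. Without the filter the deprivation response of cis SSP against cis kept 1 call, and without libraries 25 and 32 it had 8, as did deprivation in cis SSP. With a single library left out, the calls ranged from 2 to 7 for cis SSP against cis in complete medium and 3 to 6 without serine and glycine, 0 to 7 and 0 to 4 for carboplatin in cis SSP in complete and deprived medium, 1 to 6 for carboplatin in cis -SG, 0 to 4 for the deprivation response of cis SSP against cis and 2 to 4 for the carboplatin response of wt between media. The cause was not tested. Levels scaled by total counts alone, a setting chosen after seeing the data, moved by over 1 SD in 23 of 120 condition means. No paired analysis was possible because the labels give the libraries no replicate numbers. Those used here only give the order of the libraries within a condition and match no library of another condition. MYCN, at 0 to 5 reads, is limited by depth.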
